A study of Mus musculus with 8 samples.

Results

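Transfer RNA (tRNA) fragments that do not carry the CCA end were described here as single sequences and as groups by amino acid, anticodon and length. A fragment was counted as a member when at least 1 of its annotation hits named a tRNA, none named a miRNA, and its sequence did not end in CCA. This gave 571 of the 866 sequences with a tRNA hit, among 11568 distinct sequences in all. The other 295 tRNA sequences ended in CCA. The members were 16 to 58 nucleotides (nt) long, with a median of 29 nt: 292 were under 30 nt, 105 were 30 to 36 nt and 174 were over 36 nt. They named 19 amino acids and 37 anticodons in 41 anticodon groups. The hits of 499 members named 1 anticodon, and 72 members fitted several tRNA genes with different anticodons, so that their counts cannot be given to 1 of them.

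The RNA came from MIN6B1 cells, a mouse insulinoma line used as a model of the pancreatic beta cell. Cells received either a control plasmid or a plasmid that expresses HENMT1ΔC-T6B, a methyltransferase domain joined to an Argonaute-binding peptide, and each RNA was used untreated or after oxidation with NaIO4 (periodate). The 4 groups are control non-oxidized, control oxidized, methyltransferase non-oxidized and methyltransferase oxidized RNA, with 2 libraries each. All cells were transfected with a lipid reagent, and all are of 1 cell line. The labels do not say whether replicates were separate cultures or whether oxidized and non-oxidized RNA came from the same extract, so p-values measure the spread between these libraries only.

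A mature tRNA ends in CCA, the site where the amino acid is attached. Fragments without it come from the 5′ part or the middle of the tRNA, or have lost the last bases. Cleavage in the anticodon loop, by enzymes such as angiogenin, gives long 5′ and 3′ fragments that are known from stressed cells. Periodate attacks the 2 neighbouring hydroxyl groups of the last ribose of an RNA, and a methyl group on the 2′ oxygen prevents this. Some tRNAs carry natural 2′-O-methyl groups inside the molecule, among other places in the anticodon loop and at the first T of the T-loop. The chemistry of the fragments' ends was not measured here.

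The sequences below carry the results on the 3′ end. Positions are counted so that the first anticodon base is 34. The first set shows a valine tRNA fragment with 3 neighbouring ends, from the same 5′ start, and its isodecoder and the aspartate and lysine equivalents. The last base is in capitals. They were chosen after their values were seen.
Val-AAC/CAC 31 nt: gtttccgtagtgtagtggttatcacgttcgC
Val-AAC/CAC 32 nt: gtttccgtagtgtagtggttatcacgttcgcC
Val-AAC/CAC 33 nt: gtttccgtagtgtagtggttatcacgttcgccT
Val-AAC 32 nt: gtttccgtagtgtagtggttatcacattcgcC
Asp-GTC 31 nt: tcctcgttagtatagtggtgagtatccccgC
Asp-GTC 32 nt: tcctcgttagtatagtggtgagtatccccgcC
Gly-CCC 31 nt: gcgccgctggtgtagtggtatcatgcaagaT
Gly-CCC 32 nt: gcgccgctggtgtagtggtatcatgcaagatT
Lys-TTT 31 nt: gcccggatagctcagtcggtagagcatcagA
Lys-TTT 32 nt: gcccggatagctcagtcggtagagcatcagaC

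The second set ends at the first T of the T-loop. Capitals mark the last 3 bases. The set is shown because these fragments end at the same place in the tRNA and differed in what remained after oxidation.
Lys-CTT 54 nt: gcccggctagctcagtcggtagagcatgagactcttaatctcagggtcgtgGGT
Val-TAC 54 nt: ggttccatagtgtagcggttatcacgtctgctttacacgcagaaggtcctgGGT
Gly-TCC 53 nt: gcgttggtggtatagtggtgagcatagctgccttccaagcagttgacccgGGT
Gly-GCC 52 nt: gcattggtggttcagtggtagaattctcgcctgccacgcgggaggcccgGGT
Asp-GTC 53 nt: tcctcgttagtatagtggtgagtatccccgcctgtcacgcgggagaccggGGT
Thr-TGT 20 nt: gtaaaccaggggtcgcgAGT

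The third set comes from the 3′ part of the aspartate tRNA and ends inside the CCA end, so that it lacks the last bases. The fourth line is a short aspartate piece from the anticodon stem and loop. The last base is in capitals. These sequences are shown for the comparison of plasmids and for the fall on oxidation.
Asp-GTC 35 nt: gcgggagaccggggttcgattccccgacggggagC
Asp-GTC 36 nt: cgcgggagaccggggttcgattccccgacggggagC
Asp-GTC 37 nt: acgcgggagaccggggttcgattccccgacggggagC
Asp-GTC 16 nt: cctgtcacgcgggagA

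The deposited table lists only sequences with counts in the oxidized methyltransferase libraries, and the lowest count of a member there was 2, with a lowest sum of 10 over both. The listed counts per library ranged from 295094 to 6641250, and a share of 0 in the smallest library allows up to 0.00102%, by 3 counts and for counting error only. Between replicates, Pearson's r over the 571 members on log2 counts was 0.93 in control non-oxidized, 0.84 in control oxidized, 0.94 in methyltransferase non-oxidized and 0.74 in methyltransferase oxidized RNA. The oxidized methyltransferase replicates stood apart from each other: fragments under 30 nt held 32.2% of member counts in replicate 1 and 47.4% in replicate 2, and aspartate fragments held 6.62% and 28.0%. The main counts of calls that rest on this pair are given with and without replicate 2. Of the members, 562 passed the filter on low counts and were tested, and 9 were not. In both oxidized control libraries 11 members had 0 counts.

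The members took a larger share of the listed counts in oxidized control RNA than in any other group. They held 2.17% and 2.17% of listed counts in the control non-oxidized libraries and 15.1% and 15.5% in the control oxidized libraries, a mean of 15.3% ± 0.328 (SD, n = 2). With the methyltransferase they held 2.55% and 3.50% without oxidation and 1.21% and 2.32% after it. The groups did not overlap in any of these comparisons, and the exact two-sided permutation test of 2 against 2 libraries gave p = 0.333 each time, the smallest it can give. Counting error is small beside this, with a 95% Wilson interval of 15.0% to 15.2% for the first oxidized control library. The rise with control is not particular to the members. Scaled by total listed counts only, the median log2 fold change on oxidation was 3.69 over the members tested and 3.20 over all sequences tested.
As a share of listed counts, fragments with the CCA end rose on oxidation with both plasmids, while the members fell with the methyltransferase. They held 0.409% and 0.400% of the counts in control non-oxidized, 12.1% and 12.2% in control oxidized, 0.761% and 0.644% in methyltransferase non-oxidized, and 1.14% and 1.29% in methyltransferase oxidized RNA. The members were therefore 84.1% and 84.5% of tRNA counts without oxidation in control cells, and 55.4% and 56.0% after it. With the methyltransferase they were 77.0% and 84.5% without oxidation, and 51.6% and 64.2% after it. In both plasmid groups the oxidized libraries lay below the non-oxidized ones.

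**Figure D1:**
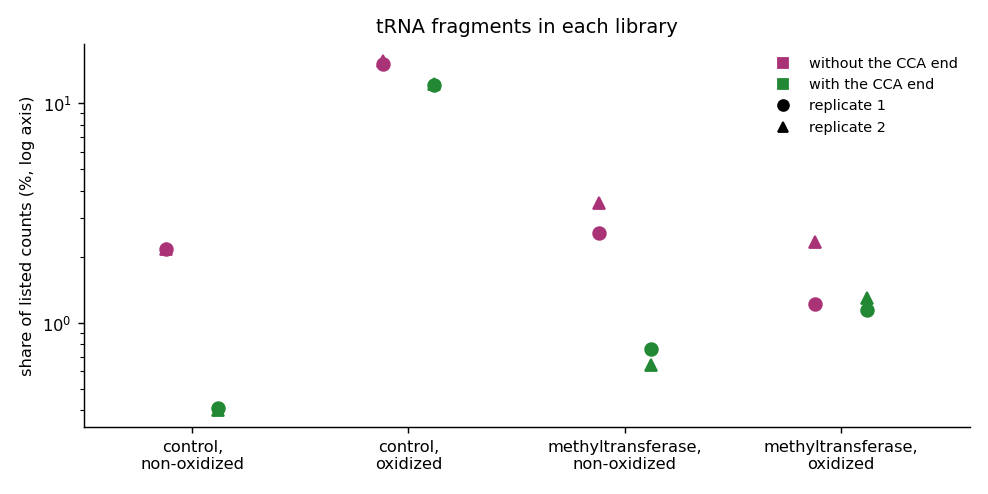
Share of listed counts (%, log axis) of tRNA fragments without and with the CCA end, 1 point per library. Oxidized control RNA, at 15.1% and 15.5% for the fragments without CCA, lies above the 3 other groups.

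Within the members, oxidation moved counts away from the middle length class. Fragments of 30 to 36 nt held 47.7% and 42.5% of member counts in control non-oxidized libraries and 19.9% and 19.1% in control oxidized libraries. With the methyltransferase they held 42.8% and 45.0% without oxidation and 26.4% and 14.3% after it. Fragments over 36 nt took a larger share, from 25.7% and 25.04% to 37.1% and 41.5% in control RNA and from 32.6% and 28.4% to 41.4% and 38.3% with the methyltransferase. So did fragments under 30 nt, from 26.6% and 32.5% to 42.99% and 39.4% in control RNA. With the methyltransferase these short fragments went from 24.6% and 26.6% to 32.2% and 47.4%. These shares within a library do not depend on the scaling between libraries.
Lysine and valine fragments led the non-oxidized control RNA, with 24.7% and 21.8% (lysine) and 25.7% and 26.5% (valine) of member counts. After oxidation lysine held 38.3% and 42.3%, and valine 13.2% and 18.4%. With the methyltransferase, lysine went from 19.7% and 17.6% to 36.03% and 32.3%, and valine from 27.1% and 29.5% to 18.6% and 8.30%. Lysine was higher and valine lower after oxidation with both plasmids with no overlap between oxidized and non-oxidized libraries. The 2 lysine anticodons went opposite ways, with no overlap. Lysine CTT rose from 17.5% and 13.3% to 33.2% and 36.8% with control. With the methyltransferase it rose from 13.8% and 11.98% to 31.2% and 30.01%. Lysine TTT fell from 7.25% and 8.51% to 5.11% and 5.51% with control. With the methyltransferase it fell from 5.95% and 5.66% to 4.81% and 2.27%. These shares were not tested.

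Sequence by sequence, oxidation lowered more members than it raised with either plasmid on the TMM scale, and the balance differed under other scalings. TMM factors are computed from the listed sequences. With control, the median of all sequences fell by more than that of the members. A fall on this scale smaller than that median is therefore not a fall against most sequences. In edgeR's quasi-likelihood test, with an adjusted p under 0.05 over all 9851 sequences tested, 31 of 562 members were higher and 175 lower in oxidized than in non-oxidized control RNA. Of all sequences tested, 64.8% were called there, 18.4% higher and 46.4% lower. The members' median log2 fold change was -0.71 and that of all sequences -1.14. With the methyltransferase, 6 members were higher and 116 lower, beside 12.9% of all sequences, 1.77% higher and 11.2% lower, and the medians were -0.74 and 0.09. Without methyltransferase oxidized replicate 1 these calls were 2 higher and 66 lower, without methyltransferase oxidized replicate 2 they were 2 and 93, and without methyltransferase non-oxidized replicate 2 they were 1 and 77. With total listed counts as the only scaling in place of the TMM factors, the control split was 436 higher and 16 lower, and the methyltransferase split was 44 and 63, since that scaling moved the median of all sequences by 4.34 and 0.87 on the log2 scale. With upper-quartile factors the splits were 222 and 80, and 39 and 73. Under total counts the medians of all sequences were 3.20 with control and 0.95 with the methyltransferase, beside 3.69 and 0.14 for the members. With upper-quartile factors they were 0.60 and 0.85, beside 1.07 and 0.03. The share of all sequences called under these scalings is not given. Splits under them, here and below, show how calls depend on the scaling and are no result about the members. Directions of single fragments below are on the TMM scale.
Members of 30 to 36 nt were called lower most often. With control, 2 of the 105 were higher and 76 lower, with a median of -2.72. Among 169 over 36 nt, 24 were higher and 34 lower, and among 288 under 30 nt, 5 were higher and 65 lower. With the methyltransferase, the 30 to 36 nt class had 2 higher and 52 lower, and a median of -2.12. Under total counts the control split of this class turned to 51 higher and 5 lower, and the methyltransferase split was 9 and 33.

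Fragments that end in the anticodon loop (positions 32 to 38) fell as a class on the TMM scale. Of the 44 tested, 33 (75%) were lower and 0 higher with control, beside 46.4% of all sequences lower, with a median of -2.82. With the methyltransferase 24 (54.5%) were lower and 0 higher, beside 11.2% of all sequences lower, with a median of -2.32, and 21 were lower without methyltransferase oxidized replicate 2. Under total counts the control direction flipped, to 21 higher and 2 lower, and the methyltransferase split was 0 and 14. Their share of member counts, which no scaling touches, went from 27.3% and 21.6% to 11.8% and 11.8% with control, and from 24.1% and 23.8% to 16.9% and 8.40% with the methyltransferase.
Within this class the 32-nt valine fragment stood out. Of the counts of the 31-, 32- and 33-nt valine AAC/CAC fragments, the 32-nt form, which ends at position 32, made up 20.9% and 26.2% in control non-oxidized and 85.2% and 81.2% in control oxidized RNA. With the methyltransferase it made up 25.2% and 26.99% without oxidation and 83.4% and 86.6% after it. In both plasmid groups the oxidized libraries lay far above the non-oxidized ones, and did not overlap them.
On the TMM scale the 31- and 33-nt forms were lower after oxidation and the 32-nt form was not called. The 31-nt form was at -4.12 (SE 0.63) with control, with adjusted p = 0.000148 in edgeR's quasi-likelihood test, but at 0.34 under total counts. The 33-nt form was counted 7971 and 6893 times in control non-oxidized, 187 and 208 times in control oxidized, 4992 and 8853 times in methyltransferase non-oxidized, and 205 and 115 times in methyltransferase oxidized RNA. Its log2 fold change was -5.56 (SE 0.49) with control, with adjusted p = 2.05e-06 in edgeR's quasi-likelihood test, and -5.70 (SE 0.49) with the methyltransferase, with adjusted p = 3.02e-05. For the 32-nt form, counted 3167 and 5325 times in control non-oxidized and 3698 and 2744 times in control oxidized RNA, the values were -0.77 (SE 0.46) and -1.31 (SE 0.46), neither past the threshold.

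The same step appeared in a second valine isodecoder and in aspartate. The valine AAC isodecoder's 32-nt form made up 17.6% and 22.5% in control non-oxidized, 83.0% and 79.9% in control oxidized, 19.4% and 24.6% in methyltransferase non-oxidized and 75.4% and 84.5% in methyltransferase oxidized RNA. For aspartate the 32-nt share went from 35.9% and 29.95% to 73.5% and 72.4% with control, and from 44.1% and 34.1% to 73.3% and 74.1% with the methyltransferase. The glycine CCC tRNA has 1 base fewer before the anticodon, and here it was the 31-nt form, which ends at position 32, that rose in share, from 2.34% and 2.91% to 38.3% and 31.5% with control and from 3.01% and 3.001% to 37.6% and 22.3% with the methyltransferase.
The lysine and glutamate TTC fragments shifted less. The lysine TTT fragment's 32-nt share was 30.5% and 26.9% in control non-oxidized and 26.5% and 30.2% in control oxidized RNA, so that these groups overlapped. A less counted lysine CTT isodecoder was at 17.7% and 22.2%, and 19.6% and 17.9%, which overlapped too. With the methyltransferase it was at 21.6% and 18.4% without oxidation, and at 18.2% and 13.5% after it, with no overlap, from 33 and 421 counts in the oxidized libraries. In control RNA the glutamate TTC share was 17.6% and 27.4% without oxidation, and 15.9% and 13.0% after it, from 88 and 23 counts in the oxidized libraries.

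**Figure D2:**
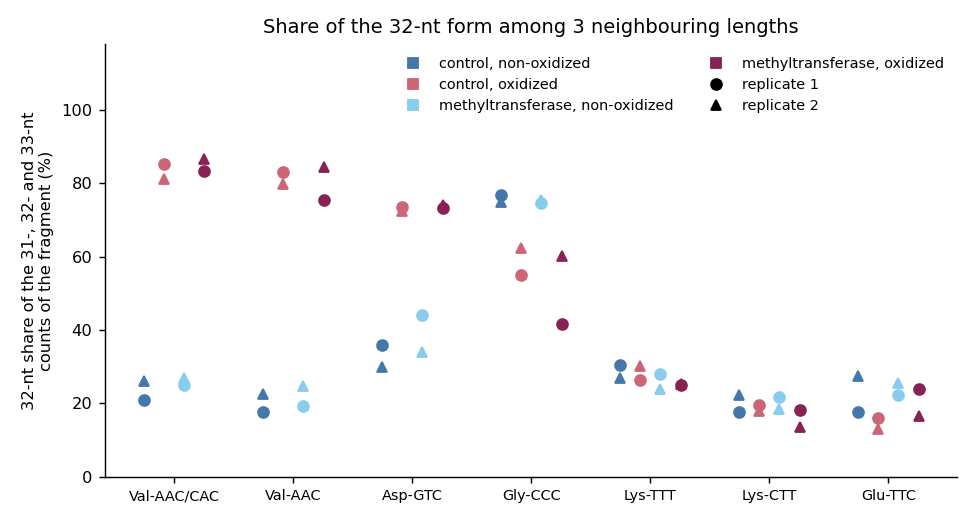
Share (%) of the 32-nt form among the 31-, 32- and 33-nt fragments of the same tRNA, 1 point per library, 7 tRNA fragments. The valine and aspartate points of the oxidized libraries lie above 70%, while the lysine and glutamate TTC points of all libraries stay below 35%. The glycine CCC 32-nt form ends at position 33, and its points fall with oxidation with both plasmids.

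The longer fragments split by anticodon at another place, the first T of the T-loop. The class held 81 members, 80 of them tested: 18 were higher and 10 lower after oxidation in control RNA, with a median of 0.75, and 5 higher and 8 lower with the methyltransferase. The 22.5% called higher with control are near the 18.4% of all sequences, so the class does not stand out by its higher calls. Its 10 lower calls of 80 stand beside 46.4% of all sequences lower. The median of 0.75 stands beside -1.14 for all sequences. Without methyltransferase oxidized replicate 2, 2 were higher and 8 lower with the methyltransferase. In the lysine CTT group, 16 of 43 were higher and 0 lower with control, with a median of 1.14, and 3 higher and 0 lower with the methyltransferase. Their share of member counts went from 4.53% and 2.42% to 21.1% and 24.6% in control RNA, and from 2.69% and 1.99% to 25.2% and 15.3% with the methyltransferase.
The main lysine CTT fragment, the 54-nt sequence shown above, was counted 3490 and 1962 times in control non-oxidized, 8541 and 7166 times in control oxidized, 1460 and 1962 times in methyltransferase non-oxidized, and 5698 and 5238 times in methyltransferase oxidized RNA. Its log2 fold change was 1.15 (SE 0.39), adjusted p = 0.0222 in edgeR's quasi-likelihood test, with control, and 1.43 (SE 0.39), adjusted p = 0.0334, with the methyltransferase. Under total counts it was 5.54 and 2.32. The count of 16 higher lysine CTT fragments in control RNA was 42 under total counts and 6 with DESeq2 size factors, and it was 6, 10 and 7 without control non-oxidized replicate 1, control non-oxidized replicate 2 and control oxidized replicate 1. The 3 higher with the methyltransferase were 0 without either methyltransferase non-oxidized replicate and 1 without methyltransferase oxidized replicate 2.

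Fragments with the same end in 7 other anticodon groups (Val-TAC, Val-CAC, Gly-TCC, Gly-GCC, Gly-CCC, Asp-GTC and Thr-TGT) fell instead. All 9 such members were called lower after oxidation with control, and 8 of 9 with the methyltransferase, beside 46.4% and 11.2% of all sequences. The 7 groups were set together after their values were seen, so these counts are no test of a split by anticodon. The valine TAC fragment was counted 5751 and 5320 times in control non-oxidized, 29 and 21 times in control oxidized, 7623 and 7687 times in methyltransferase non-oxidized, and 30 and 33 times in methyltransferase oxidized RNA. Its log2 fold changes were -8.17 (SE 0.47) with control and -8.16 (SE 0.47) with the methyltransferase, with adjusted p = 2.79e-07 and 7.21e-06 in edgeR's quasi-likelihood test. The oxidized libraries did not overlap the non-oxidized ones in either plasmid group.
The glycine TCC fragment was at 2332 and 4557 counts, 8 and 4 counts, 2269 and 3737 counts, and 7 and 10 counts in the same order, with log2 fold changes of -9.53 and -8.67. The aspartate 53-nt fragment was at 3431 and 2916, 60 and 10, 4639 and 6499, and 13 and 443 counts. Its 2 oxidized methyltransferase replicates differed from each other more than the control ones did. The valine TAC and glycine TCC values stayed below 0 under total counts, at -3.77 and -5.11 with control.
Among other T-loop members, 1 of 5 lysine TTT fragments was lower with control, and the 3 asparagine fragments were not called. The share of member counts held by these 5 lysine TTT fragments still went from 0.0788% and 0.129% to 0.136% and 0.227% with control. With the methyltransferase it went from 0.0997% and 0.0620% to 0.213% and 0.175%. The 16 glutamate TTC fragments went from 0.335% and 0.326% to 1.39% and 1.29% with control, and from 0.243% and 0.195% to 2.05% and 1.20% with the methyltransferase. What sets these anticodon groups apart was not tested.

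**Figure D3:**
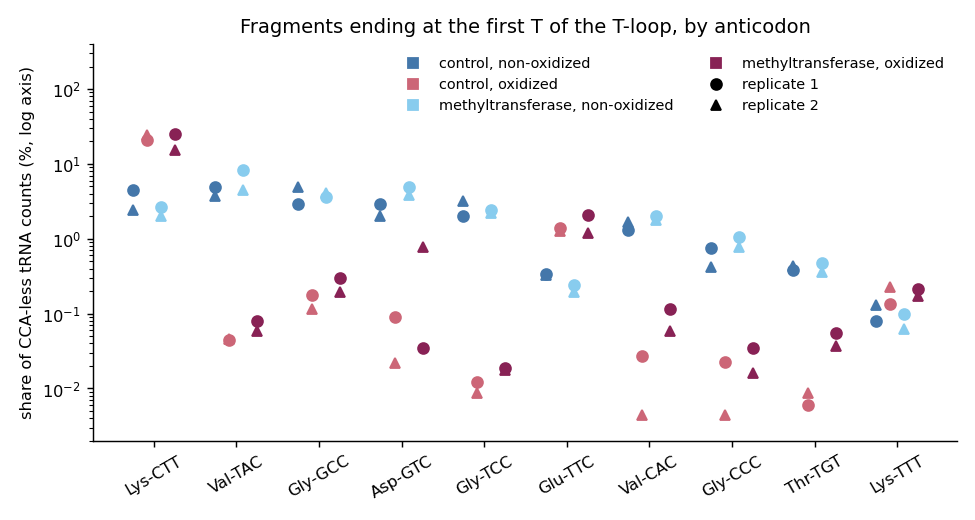
Share of the CCA-less tRNA counts (%, log axis) held by fragments that end at the first T of the T-loop, by anticodon, 1 point per library. The lysine CTT and glutamate TTC points rise with oxidation, the lysine TTT points rise less, and the valine, glycine, threonine and aspartate points fall.

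Among the short fragments, the leucine CAG 16-nt and aspartate 18-nt ones start at the first base of the tRNA. The leucine CAG 16-nt fragment was counted 474 and 534 times in control non-oxidized, 1169 and 688 times in control oxidized, 351 and 612 times in methyltransferase non-oxidized, and 477 and 714 times in methyltransferase oxidized RNA. It was not called in either oxidation comparison, at 0.47 (SE 0.42) and 0.11 (SE 0.42). The aspartate 18-nt fragment was at 408 and 3699, 1848 and 155, 910 and 3640, and 258 and 4841 counts in the same order. Its replicates differed within every group, so that its log2 fold changes of -1.59 (SE 1.31) and 0.10 (SE 1.28) lie within the spread. In all, 366 members fell into 19 families of 8 or more that share their first 16 bases.

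The 2 oxidation comparisons use different libraries and can be set side by side. Of the members, 107 were called lower with both plasmids, 61.1% of the 175 lower with control and 92.2% of the 116 lower with the methyltransferase, and 3 were called higher in both. Over all 9851 sequences the shared lower calls were 23.5% and 97.7% of the same lists, so nearly all calls lower with the methyltransferase were also lower with control whether or not they were members. No member was called in opposite directions. Across the 562 members, which share sequences and are not independent, Pearson's r between the 2 sets of log2 fold changes was 0.79 and Spearman's rho 0.76. One of the deepest falls was that of the aspartate 16-nt fragment from the anticodon loop and stem, at 2510 and 7914 counts in control non-oxidized, 6 and 0 in control oxidized, 2004 and 6544 in methyltransferase non-oxidized, and 7 and 4 in methyltransferase oxidized RNA. It had log2 fold changes of -11.13 and -9.80.

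**Figure D4:**
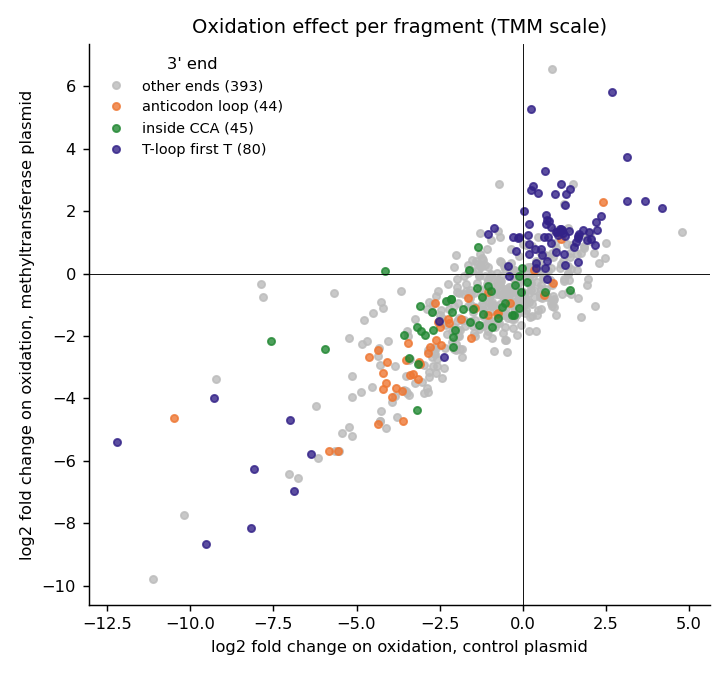
Log2 fold change on oxidation for each of 562 members, with the control plasmid (x axis) and the methyltransferase plasmid (y axis), TMM scale, coloured by 3′ end. Fragments ending in the anticodon loop lie mostly in the lower left, and those ending at the first T of the T-loop lie in both corners; fitted values of members at 0 in oxidized control RNA depend on the prior count of the fit.

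In oxidized RNA, aspartate fragments made up most of the members called higher with the methyltransferase than with the control plasmid, and fragments under 30 nt most of those called lower. With edgeR's quasi-likelihood test, 30 of 562 members were higher and 23 lower in methyltransferase than in control RNA, that is 5.34% and 4.09%, against 46.2% called of all 9851 sequences, 42.3% higher and 3.92% lower. Of the 30 higher, 8 had 0 counts in both oxidized control libraries. They were listed only through their counts in oxidized methyltransferase RNA, so their direction was fixed by the listing. The members' median was -0.13 and that of all sequences 0.82. Under total counts the split was 1 higher and 459 lower, and with upper-quartile factors 12 and 171. In that order, the medians of all sequences were -2.17 and -0.07 under these scalings, beside -3.15 and -1.03 for the members. On the TMM scale the split was 24 and 10 without methyltransferase oxidized replicate 2, and 21 and 23 without control oxidized replicate 2. Of the CCA fragments, 2 were higher and 5 lower.
Aspartate held 17 of the 30 higher members, among 99 tested, with a median of 1.12, and 1.08 with the 2 members that had no oxidized control counts set to their bound. Of all sequences, 42.3% were higher, with a median of 0.82. Under total counts, 0 aspartate members were higher and 41 lower, and with upper-quartile factors 6 and 6. Without methyltransferase oxidized replicate 2, 9 aspartate members were higher, and none of these 9 lay among the 62 tested that end elsewhere than inside CCA. The aspartate fragments ending inside CCA had 8 higher of 37, beside 42.3% of all sequences, and 6 to 10 when each library was left out in turn. The 36-nt and 35-nt fragments were counted 21 and 8 times, and 18 and 5 times, in control oxidized RNA, and 130 and 54 times, and 91 and 49 times, in methyltransferase oxidized RNA. The listed counts were 438363 and 295094 in the control and 3100971 and 2446036 in the methyltransferase oxidized libraries. These raw counts alone therefore do not show a higher share. In all 9 of the higher aspartate fragments with other ends, methyltransferase oxidized replicate 2 had the higher count, as in the 53-nt fragment above.
Of the 23 lower members, 22 were under 30 nt. They held 6 of the 24 alanine members tested, with 0 alanine members higher, 5 glycine CCC fragments of 17 to 24 nt, 5 lysine TTT fragments of 16 to 26 nt and 4 leucine fragments. Without methyltransferase oxidized replicate 2, the alanine and cysteine fragments together had 1 higher and 2 lower. The 20-nt glycine CCC fragment was counted 230 and 107, 2540 and 321, 114 and 129, and 308 and 261 times in the 4 groups, in the order control non-oxidized, control oxidized, methyltransferase non-oxidized and methyltransferase oxidized. Its log2 fold change between plasmids in oxidized RNA was -2.05 (SE 0.67), adjusted p = 0.0245 in edgeR's quasi-likelihood test. Its 2 oxidized control replicates differed widely from each other. So did those of the 18-, 19- and 24-nt glycine CCC fragments, at 351 and 75, 160 and 13, and 131 and 28 counts.
Thr-TGT 20 nt, in the T-loop set, had 0 counts in both oxidized control libraries and 19 and 10 in oxidized methyltransferase RNA, which on the TMM scale is at least 4.90-fold higher, by 3 counts per library. Since the table lists only sequences counted in oxidized methyltransferase RNA, a member at 0 in oxidized control RNA could only be listed as higher there, and the bound describes it without a test. Under total counts the bound was 0.601, so it is not shown to be higher there. Against non-oxidized control RNA, at 436 and 602 counts, it was at least 218-fold lower in oxidized control RNA, or at least 10.1-fold under total counts. The glycine CCC 32-nt fragment that starts 2 bases downstream of the tRNA's first base (204 and 108 counts in control non-oxidized, 14 and 5 in methyltransferase oxidized RNA) was at least 66.3-fold lower on oxidation in control RNA, or at least 3.18-fold under total counts. Between the plasmids in oxidized RNA it was at least 3.15-fold higher on the TMM scale, with a bound of 0.386 under total counts.

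**Figure D5:**
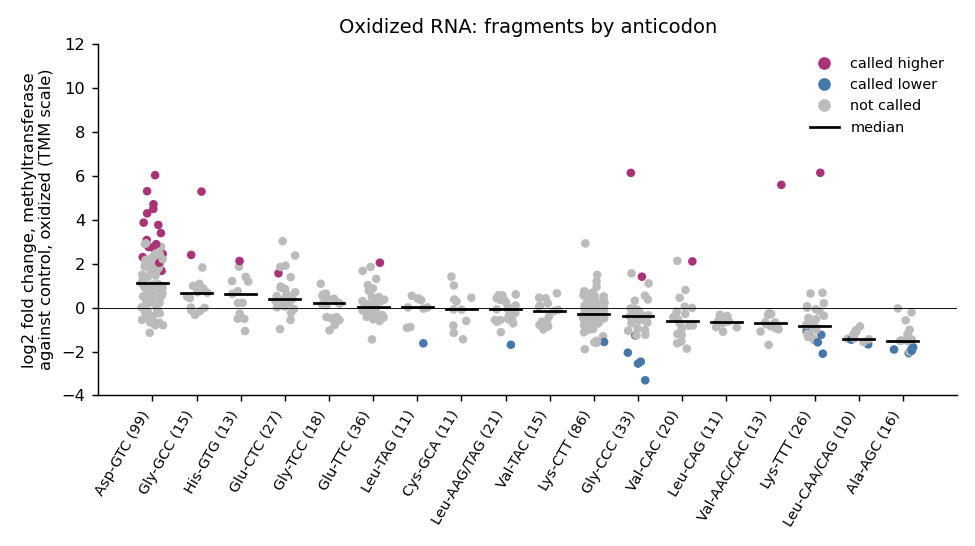
Log2 fold change between plasmids in oxidized RNA (TMM scale) for each member, by anticodon group of at least 10 tested members, with the group median as a line. Aspartate has the most members called higher; alanine, glycine CCC and lysine TTT hold most of those called lower.

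In non-oxidized RNA, 0 members were called between the plasmids, beside 0 (0%) of all sequences, and 19 had an unadjusted p under 0.05. DESeq2's Wald test also called 0. The median was -0.09. This does not show that the plasmids leave the fragments alike.
The interaction of plasmid and oxidation, which tests whether oxidation moved a fragment differently with the 2 plasmids, called 16 members higher and 4 lower, beside 42.6% of all sequences, 39.6% higher and 3% lower. The 4 lower were 3 alanine AGC fragments and the 24-nt glycine CCC fragment. Of the 16 higher, 8 had 0 counts in both oxidized control libraries, so that their fitted values are no bound, and they were listed only through their counts in oxidized methyltransferase RNA. Without methyltransferase oxidized replicate 2 the split was 20 higher and 9 lower. The direction flips under total counts, with 1 higher and 416 lower. There the median of all sequences was -2.55 and that of the members -3.53. The 20 calls were 12 without control non-oxidized replicate 2, and 13 without either control non-oxidized replicate 1 or methyltransferase non-oxidized replicate 2.

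By lists of anticodons chosen with earlier results of these data known, the tRNAs whose anticodon-loop fragments are known from stress held 390 members and 79.1% and 79.8% of member counts in control non-oxidized RNA, and 79.4% and 78.6% in control oxidized RNA. The alanine and cysteine tRNAs that start with a run of G held 36 members and no more than 3.25% of member counts in any library. The 122 members of the tRNAs whose anticodon can carry queuosine were mostly aspartate, and in oxidized RNA 18 of 120 tested were higher and 0 lower between the plasmids, beside 42.3% of all sequences higher and 3.92% lower. Without methyltransferase oxidized replicate 2, 10 were higher. In the same comparison the stress list had 27 higher and 11 lower of 384 tested, and the G-run list 0 and 6 of 35. Without methyltransferase oxidized replicate 2 these were 20 and 6, and 1 and 2. On oxidation in control RNA the stress list had 28 higher and 129 lower of 384, and the queuosine list 0 and 56 of 120. The G-run list had 1 and 4 of 35, all on the TMM scale. Of all sequences, 18.4% were higher and 46.4% lower there. The queuosine list was near that lower share, and the other lists were under it. Under total counts the splits turned to 280 and 12, 68 and 5, and 34 and 0.

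Some members differed by 1 base from far more abundant ones. In all, 37 members differed by 1 base from a member of the same length with several times their total counts. Of these, 8 had no genomic match in the deposited table, and the others matched the genome themselves. In 5 of the 37 the difference was at the first base. The 54-nt lysine CTT fragment had a variant that differed from it by G1A, counted from the 5′ end, with no genomic match. It was counted 249 and 52 times in control oxidized RNA and 14 and 2 times in control non-oxidized RNA, and 28 and 39 times in methyltransferase oxidized RNA. It had a log2 fold change of 3.68 (SE 0.88) on oxidation in control, with adjusted p = 0.00321 in edgeR's quasi-likelihood test.
The sign of the fold changes in the authors' deposited table was read from its normalized signal: all 47 members with an adjusted p under 0.05 between plasmids, and all 138 for oxidation with the methyltransferase, had a negative value where the second group named had the higher mean signal. In the authors' deposited table, 39 members were higher with the methyltransferase in oxidized RNA and 8 lower. Calls of the edgeR fit shared 26 of the higher and 8 of the lower members. For oxidation with the methyltransferase, the authors' deposited table had 6 higher and 132 lower members, and the edgeR fit shared 4 and 114. Both analyses use the same counts, and no member called in both had opposite directions.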

How the data were processed

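Counts were read from 1 deposited table. Per the file headers it holds the count of each distinct read sequence in each library, an annotation hit and the number of genomic matches as a count. The authors also deposited a normalized signal (count divided by a size factor), regularized log2 values, signed fold changes as a score and p-values; the log2 values were not used here, and the signal only to read the sign of the fold changes. The aligner, genome build, trimming and use of molecular identifiers are not given in the sources used here. Lines repeating a sequence were merged, and 2 sequences with hits in several classes were left out.

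Counts were fitted with edgeR 4.0.16 (TMM factors, filterByExpr, quasi-likelihood test) in R 4.3.3 over all 8 libraries, in 1 model of 4 groups, with 9851 sequences tested and 562 of 571 members among them. Calls used a threshold of 0.05 on p-values adjusted by Benjamini and Hochberg. DESeq2 1.42.0 was an alternative. The fit was tested on simulated data. Anticodon numbering used T and the anticodon with at least 4 of 5 paired stem bases. Positions of tRNA genes in the genome were not used here. The 27 members named by rule were chosen by abundance and by the largest calls; 1 of them, with related fragments, is not reported here. Other named fragments, end classes and length ladders were chosen after seeing values. Members and lists were chosen with earlier results of these data known.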

Additional observations from a re-analysis of the deposited data

Results flagged for a closer look

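The interaction of plasmid and oxidation called 20 of 562 members, beside 42.6% of all sequences tested. Of the 16 higher ones, 8 had 0 counts in both oxidized control libraries and were listed only through their counts in oxidized methyltransferase RNA. On the log2 scale of edgeR's quasi-likelihood fit, the threonine TGT 20-nt fragment was at 6.81, the glycine CCC 32-nt fragment that starts downstream of the first base at 5.86 and the aspartate 20-nt fragment at 5.84. All 3 had 0 counts in both oxidized control libraries, so these values depend on the prior count and are no bound. The glycine CCC 24-nt fragment was at -3.13, and 2 alanine AGC 19-nt fragments were at -2.22 and -2.03. The reason for these differences was not tested.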

How the results depend on the processing

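Counts of calls moved with the scaling and with the libraries used. When counts were summed, calls are among 67 groups of anticodon and length class in place of 562 members. For plasmids in oxidized RNA, 53 members were called, 460 with total counts, 183 with upper quartile and 7 of 67 when summed, and 34 to 62 with 1 library left out. For oxidation in control RNA, 206 were called, 452 with total counts, 302 with upper quartile and 36 of 67 summed, and 153 to 226 with 1 library left out. For oxidation with the methyltransferase, 122 were called, 107 with total counts, 112 with upper quartile and 30 of 67 summed, and 68 to 134 with 1 library left out (68 without methyltransferase oxidized replicate 1, 78 without methyltransferase non-oxidized replicate 2). For the interaction, 20 were called, 417 with total counts, 66 with upper quartile and 1 of 67 summed, and 12 to 30 with 1 library left out: 12 without control non-oxidized replicate 2, and 13 without control non-oxidized replicate 1 or methyltransferase non-oxidized replicate 2. Under total counts, 3 named fragments of oxidation in control RNA turned direction: the valine AAC/CAC 31-nt at 0.34, the lysine TTT 31-nt at 1.42 and the valine CAC 34-nt at 0.20. The cause was not tested. As a share of tRNA counts the members were 84.3%, 55.7%, 80.7% and 57.9% in control non-oxidized, control oxidized, methyltransferase non-oxidized and methyltransferase oxidized RNA. With 1 anticodon only the control groups held 1.74% and 12.1% of listed counts. Deviations of same-numbered libraries correlated at -0.0314 to 0.379, highest between the non-oxidized groups. The labels give no pairing and 3 of 6 correlations were under 0.1, so the numbers were not used as pairs. With the replicate number as a block 54, 0, 217, 138 and 23 members were called, in the order plasmids oxidized, plasmids non-oxidized, oxidation with control, oxidation with the methyltransferase and interaction. With 2 libraries per group, depth and spread limit what can be called.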
